A study of Bos taurus with 2 samples.

Results

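The ADAM, ADAMTS, MMP and TIMP genes of the bovine testis were described on 2 arrays, one hybridised with RNA of crossbred bulls and one with RNA of Zebu bulls. The members were all non-control probes whose gene name on the array starts with ADAM, which takes in ADAMTS, the ADAMTS-like genes and ADAMDEC1, or is MMP or TIMP followed by a digit. The rule used names alone and no measured value. It found 66 genes of 32429 gene names, with 138 of 51282 probes and 148 spots, and 24 of these genes had 1 probe while the most had 5. The choice of these families, of the groups within them and of the lists below was made with earlier results of these data known.

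The crossbred group was Holstein Friesian crossbred bulls with 50 to 75% exotic inheritance, and the Zebu group was Tharparkar bulls, an indigenous breed. All were 24 months old, and testis RNA of 3 bulls was pooled within each group before labelling with Cy3, so each group was 1 array and the spread between bulls was not measured. The study asked which transcripts differ between the testes of the breeds, since crossbred bulls more often have poor semen. Both arrays lay on the same slide, and with 1 array per group the differences given here could not be checked on replicates and carry no p-value. Testis tissue holds many cell types, and in pooled tissue RNA fewer cells of a type and less RNA per cell cannot be told apart.

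ADAMs are membrane proteins with a metalloproteinase and a disintegrin domain. Some are expressed almost only in male germ cells and act on the sperm surface, while others shed growth factors and receptors from cells of many tissues. ADAMTS proteins are secreted relatives that trim proteoglycans and procollagens, MMPs cleave collagens and other matrix proteins, and TIMPs inhibit the MMPs and several ADAM and ADAMTS enzymes.

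The value of a probe was its log2 signal minus the 75th percentile of its array, so that 0 is the 75th percentile, and differences are given as crossbred minus Zebu on this log2 scale. A gene was read from its main probe, the one with the highest mean log2 signal over both arrays, and counted as detected if the scanner software marked that probe as well above background for either pool. Higher or lower means a difference of 1.5 or more in size, a 2.83-fold difference on the linear scale. Spots of one probe gave an SD of 0.29 in the crossbred data and 0.18 in the Zebu data over 5962 probes, which makes an SD of 0.34 for a difference and covers spotting and scanning only. Levels of different probes cannot be set against each other, since probes differ in how well they bind.

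Probes of the genes that carry the results are shown first, 5′ to 3′ in the orientation of the transcript and all in lower case, with the positions on the Btau_3.1 assembly that the array annotation gives. Exon, intron and UTR annotation of that assembly was not used here. The first 5 are probes of sperm surface ADAMs, all main probes except that of ADAM21, which is its second probe. The ADAM20 and ADAM21 probes are of the 2 genes of that family past the threshold, and ADAM2, ADAM3A and ADAM32 are sperm surface genes clustered with one another in the genome. The ADAM20 and ADAM2 probes lie on unplaced scaffolds, ADAM21 at chr10:84416251-84416310 on the plus strand, ADAM3A at chr27:36993959-37000654 on the minus strand and ADAM32 at chr27:36699445-36701341 on the plus strand.
ADAM20: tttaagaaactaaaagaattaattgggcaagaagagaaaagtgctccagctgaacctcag
ADAM21: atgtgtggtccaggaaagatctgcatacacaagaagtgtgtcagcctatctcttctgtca
ADAM2: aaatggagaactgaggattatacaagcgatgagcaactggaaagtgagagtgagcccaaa
ADAM3A: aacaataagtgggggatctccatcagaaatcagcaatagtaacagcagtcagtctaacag
ADAM32: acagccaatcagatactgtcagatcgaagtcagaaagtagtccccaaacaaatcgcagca

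The ADAM3A and ADAM32 probes are 60 bases long but span 6696 and 1897 bases of the assembly, so each matches separate stretches of the gene. No pair of probes from different members shared a run of 16 bases or more, ADAM20 and ADAM21 included. The next probes are of the secreted enzymes and the inhibitor whose values the following paragraphs turn on. The ADAMTS10 probe is the main one, the MMP13 and MMP2 probes are other probes of these genes, and the TIMP3 probe is one whose spot lay in a dark patch of the crossbred array. ADAMTS10 lies at chr7:15625565-15625624 on the minus strand, and MMP13 at chr15:4620591-4622061, MMP2 at chr18:23291341-23291400 and TIMP3 at chr5:76710563-76711706 lie on the plus strand.
ADAMTS10: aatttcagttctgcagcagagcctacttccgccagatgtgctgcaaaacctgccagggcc
MMP13: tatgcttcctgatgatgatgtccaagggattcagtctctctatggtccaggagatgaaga
MMP2: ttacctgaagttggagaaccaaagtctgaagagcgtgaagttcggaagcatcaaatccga
TIMP3: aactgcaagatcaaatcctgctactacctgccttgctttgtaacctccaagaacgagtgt

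Of the 66 genes, 58 were detected, 56 in both pools and 2 in the Zebu pool alone. Of all 24751 detected transcripts, 22842 were detected in both pools. The number of members higher in crossbred testis was 5, or 8.62% of the 58 detected, where 7.12% of all 24751 detected transcripts were higher. These were ADAMTS10, MMP13, MMP2, ADAM20 and ADAM21. The number lower was 1, MMP19, or 1.72%, where 2.92% of all detected transcripts were lower. Both shares are close to those of all transcripts. The median difference of the detected members was -0.00 and that of all detected transcripts -0.05, and 82.8% of the members against 80.2% of all transcripts differed by less than 1 in size. The families did not lie evenly around that median, as the plot of differences by group shows. With another background correction, normexp with an offset of 50, the numbers were 1 higher, MMP2, and 0 lower, and the shares of all detected transcripts were 4.16% higher and 0.683% lower.

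**Figure D1:**
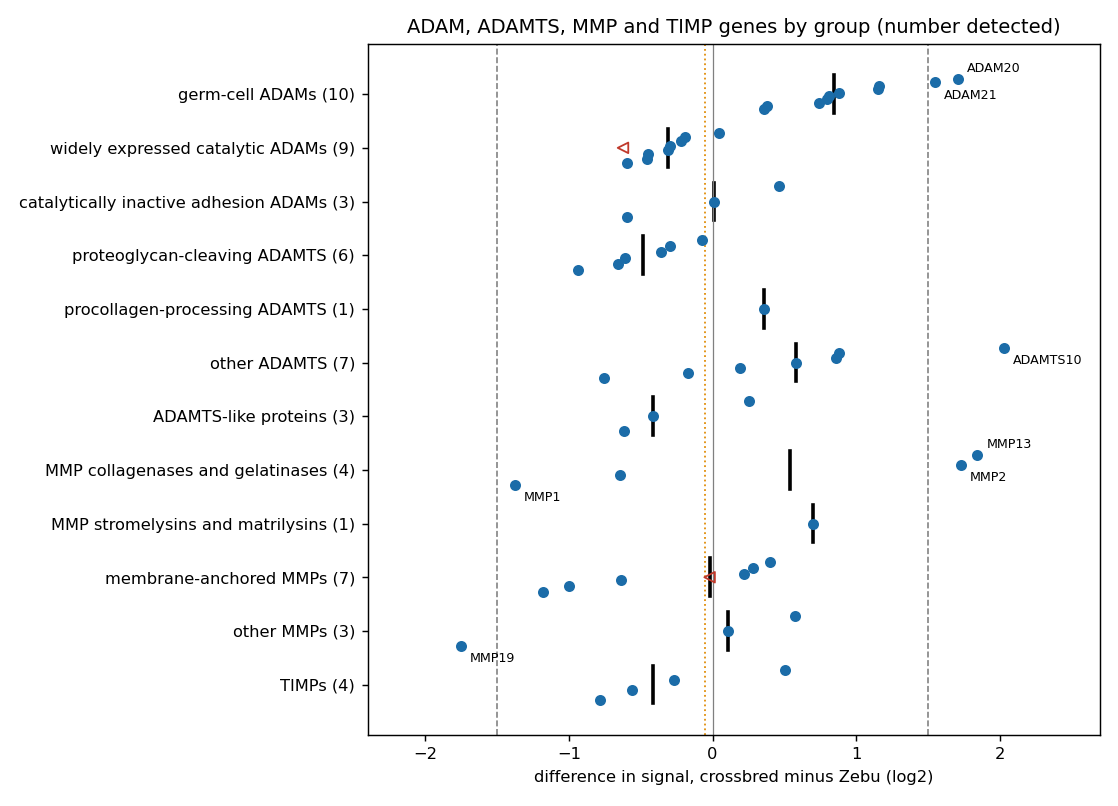
Difference in log2 signal (crossbred minus Zebu, x axis) of every detected member by its main probe, in 12 rows for the groups, with the number detected in brackets. Filled points are genes well above background on both arrays, open triangles are bounds for genes above background in the Zebu pool alone, black bars are group medians, dashed lines mark 1.5 in size and the dotted line marks the median of all detected transcripts at -0.05. All 10 germ-cell ADAMs lie above 0 and all 6 proteoglycan-cleaving ADAMTS below 0.

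The germ-cell ADAMs had the highest median of the 12 groups by main probes, though over all probes well above background on both arrays the collagenases and gelatinases had 0.90 and the germ-cell ADAMs 0.85. All 10 genes on the array were detected in both pools, and all 10 had a higher signal in the crossbred pool, with a median of 0.85 and a range from 0.36 to 1.71, where 46.8% of all detected transcripts lay above 0. Their 14 probes gave 14 differences above 0, from 0.30 to 1.71, where 46.5% of all 36443 probes well above background on both arrays lay above 0. Past the threshold of 1.5 were 2 of the 10 genes, where 7.12% of all detected transcripts were higher.

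ADAM20, a testis ADAM with a catalytic site, had a signal of -1.16 for crossbred and -2.87 for Zebu, a difference of 1.71 or 3.27-fold, by its single probe. ADAM21, its close relative, had -1.35 and -2.90 by its main probe, a difference of 1.55. The 2 spots of this probe gave 1.55 and 1.55, and the second ADAM21 probe gave 1.62 from -1.52 and -3.14. The crossbred array was thus the brighter one for every spot of both genes. With normexp the differences were 1.45 for ADAM20 and 1.22 for ADAM21, below the threshold.

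The fertilin subunits form a heterodimer on the sperm surface. ADAM2, fertilin beta, had 3.05 for crossbred and 2.25 for Zebu, a difference of 0.80, and its second probe gave 0.30. Of the fertilin alpha genes, ADAM1B had -0.93 and -2.08, a difference of 1.16, and ADAM1A had -1.73 and -2.09, a difference of 0.36. The fertilin alpha genes, both placed on chromosome 17 by the array annotation, thus differed by unequal amounts, and the lower of these values is about the SD between spots.

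ADAM3A, or cyritestin, which in mice is needed for sperm to pass into the oviduct and bind the zona pellucida, had 4.43 and 3.62, a difference of 0.81, and its second probe gave 0.81 as well. ADAM32, a testis gene without a known substrate, had 4.88 and 4.14, a difference of 0.74, and 0.89 by its second probe. The probes of each of these genes gave values within the spread between spots. ADAM18, also on the sperm surface, had -4.40 and -5.56, a difference of 1.15 that was 0.44 with normexp. ADAM30 had -0.05 and -0.94, a difference of 0.88. ADAM29 had -4.73 and -5.11, a difference of 0.38 that was 0.11 with normexp. ADAM18 and ADAM29 thus lay close to the lowest signal well above background, -5.94 on the Zebu array.

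**Figure D2:**
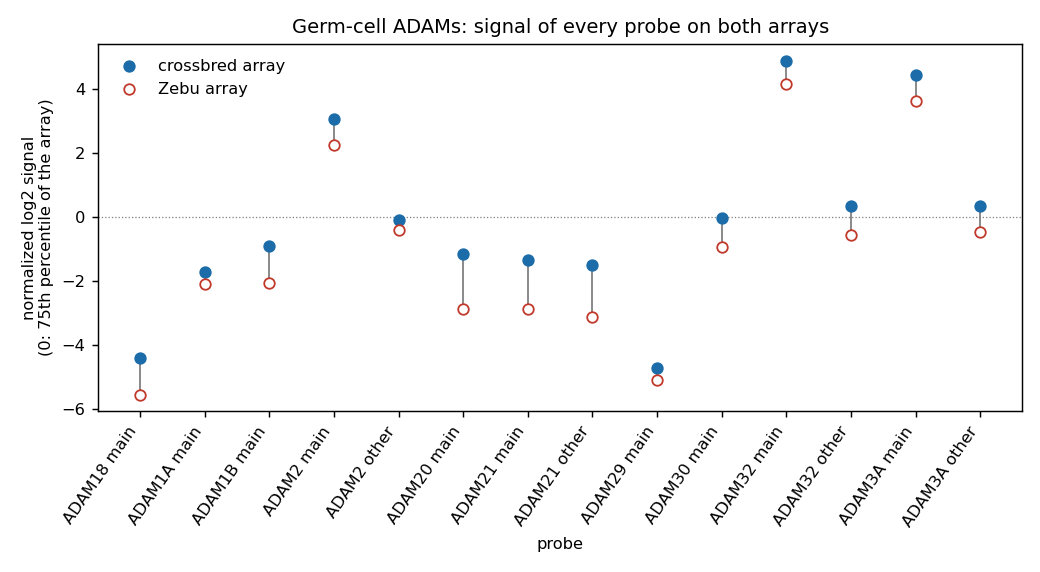
Normalized log2 signal (y axis, 0 is the 75th percentile of the array) of the 14 probes of the 10 germ-cell ADAM genes, with the main and the other probe of a gene named on the x axis. Filled points are the crossbred array and open points the Zebu array, and the crossbred point is the upper one for all 14 probes.

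Genes listed as partners of sperm ADAM maturation had a median of 0.93 over the 10 detected of 12 listed. Of these 10, 4 were higher, 0 lower and 9 above 0. Of all detected transcripts 7.12% were higher, 2.92% lower and 46.8% above 0, shares that also stand beside the lists below. PRSS37, a testis protease-like protein needed for ADAM3 processing, had 5.38 and 2.97, a difference of 2.41. ACE, whose germ-cell form is needed for ADAM3 to reach its place on sperm, had -1.75 and -3.78, a difference of 2.03. PDILT, a testis disulfide isomerase that chaperones ADAM3, had 1.42 and -0.58, a difference of 2.0. SPAM1, a sperm hyaluronidase on this list with no action on ADAMs claimed here, had 0.77 and -0.83, a difference of 1.60. These 4 were the list's members past the threshold. ACE is also expressed by other cells, and the probe does not separate its forms.

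Markers of spermatids moved with the germ-cell ADAMs. All 8 spermatid markers were detected in both pools and lay above 0, with a median of 1.67 and a range from 0.36 to 2.13, and 5 of 8 were higher: ODF1 by 2.13, PRM2 by 1.88, TNP2 by 1.74, AKAP4 by 1.71 and ACRV1 by 1.64. The 5 spermatocyte markers on the array had a median of 0.20 and a range from 0.05 to 0.84. The spermatogonial markers had a median of -0.80 over 8 genes, with SALL4 lower at -1.65. The median of the germ-cell ADAMs thus lay between those of the spermatocyte and the spermatid markers. The part of the spermatid markers in these values was not tested.

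Among the widely expressed catalytic ADAMs, 9 of 10 were detected, 8 of the 9 lay below 0 and none passed the threshold. Of all 24751 detected transcripts 13080 lay below 0. The median of these 9 ADAMs was -0.31 and the range -0.62 to 0.05. Of the 16 probes of the group well above background on both arrays, 12 lay below 0 and 4, of ADAM8 and ADAM15, above 0. ADAM10, which sheds Notch receptors and cadherins, had 1.1 for crossbred and 1.40 for Zebu, a difference of -0.30, and its other probes gave -0.59 and -0.54. ADAM17, which sheds TNF, had -0.24 and 0.21, a difference of -0.46, and its other probes lay between -0.57 and -0.03. All 7 probes of the pair lay below 0, by amounts that ran from well under the SD between spots to somewhat over it. ADAMDEC1, a secreted ADAM-like protein of tissue macrophages, was above background in the Zebu pool alone, which put its signal at least 1.54-fold lower in the crossbred pool. One ADAM33 probe, singled out after its value was seen, was above background in the Zebu pool alone and at least 3.46-fold lower in the crossbred pool, while the main ADAM33 probe gave -0.31. ADAM28, which is known from lymphocytes, was not well above background on either array.

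Regulators of ADAM10 and ADAM17 had a median of -0.41 over 10 detected of 11 listed, with 9 below 0, 0 higher and 1 lower. The lower one was RHBDF1, an inactive rhomboid that carries ADAM17 to the surface, with -0.34 and 1.19, a difference of -1.53. Of the substrates of both sheddases 6 of 11 were detected, with a median of -0.51. NOTCH1, a receptor cleaved by ADAM10, was the 1 lower gene with -0.37 and 1.40, a difference of -1.77.

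The catalytically inactive ADAM11, ADAM22 and ADAM23, adhesion proteins best known from neurons, had differences of 0.46, 0.01 and -0.60. The ADAM23 probes did not give one value. A second probe well above background on both arrays gave -1.16, and another, which shares 38 bases with the main probe, was above background in the Zebu pool alone, at least 2.92-fold lower in the crossbred pool.

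The ADAMTS family had genes on both sides. Of the proteoglycan-cleaving enzymes 6 of 7 were detected and all 6 lay below 0, with a median of -0.49 and a range from -0.94 to -0.08, none past the threshold. ADAMTS4, an aggrecanase, was the lowest with -4.13 and -3.19, a difference of -0.94 that was -0.46 with normexp. Another ADAMTS4 probe gave 0.00, and another was above background in the Zebu pool alone, at least 1.85-fold lower in the crossbred pool. ADAMTS1, a versican-cleaving enzyme, had -0.80 and -0.14, with -0.66 in each of its 2 spots. ADAMTS5, the other main aggrecanase, had -4.81 and -4.45, a difference of -0.36. The signs of the main probes thus ran together, where 13080 of all 24751 detected transcripts lay below 0. ADAMTS15 at -0.08 and ADAMTS8 at -0.29 were under the SD of 0.34 between spots, and ADAMTS5 was about at it. ADAMTS20 was not well above background on either array.

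ADAMTS10, a secreted enzyme that binds fibrillin microfibrils, had the highest difference of the members by main probe. Its main probe had -2.08 for crossbred and -4.10 for Zebu, a difference of 2.03 or 4.08-fold, and the second probe, 158 bases away by its start, had -2.39 and -4.27, a difference of 1.88. Both probes thus put the crossbred pool higher by a like amount. With normexp the difference was 1.31, below those of MMP2 and ADAM20, and by the mean of all probes ADAMTS10 at 1.95 lay just below MMP13 at 1.97. The other 6 genes of that group, which take in ADAMTS6, ADAMTS16 and ADAMTS17, lay between -0.75 and 0.88 with no call, and the group's median was 0.58. Of the procollagen-processing enzymes only ADAMTS2 was detected, at 0.36, and the main probes of ADAMTS3 and ADAMTS14 were not well above background on either array. The ADAMTS-like genes ADAMTSL2, ADAMTSL4 and ADAMTSL5, which lack a catalytic domain, had -0.62, -0.41 and 0.25.

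The collagenases and gelatinases held the 2 MMPs that were higher in the crossbred pool. MMP13, collagenase 3, had -2.93 for crossbred and -4.77 for Zebu, a difference of 1.84 or 3.59-fold. Its other probes gave 2.06 from -3.13 and -5.19, and 2.0 from -3.46 and -5.46. All 3 probes, spread over 3 places of the gene, thus passed the threshold in one direction. Their Zebu signals ran down to -5.46, towards the lowest signal well above background on that array, -5.94, so the sizes are less sure. With normexp the main probe gave 0.98.

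MMP2, gelatinase A, had 1.29 for crossbred and -0.43 for Zebu, a difference of 1.73 or 3.31-fold, with 1.78 and 1.67 in its 2 spots and 1.66 with normexp. A second probe, 160 bases upstream by its start, had 0.05 and -1.67, a difference of 1.72. A probe further downstream, at chr18:23292175-23292640, went the other way with -0.52 and 0.52, a difference of -1.04. Another gave 0.08 from -5.59 and -5.67, close to the lowest signals well above background, -5.78 for crossbred and -5.94 for Zebu. The last was not well above background on either array. The probes of MMP2 thus disagreed, with 2.77 between the main and the downstream probe, and the mean over its probes was 0.62. Bases 21 to 50 of the downstream probe are shown because they hold the letters AATAAA, in capitals, the usual polyadenylation signal.
MMP2 downstream probe: tcagtgagtacgAATAAAgacactaattga

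AATAAA, searched on the strand of the probe, was in 11 of the 138 member probes, or 7.97%, and in 8.35% of all probes on the array. The match is a description and shows no site of cleavage.

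MMP1, collagenase 1, had -4.35 and -2.97, a difference of -1.38 that was -0.78 with normexp. A second MMP1 probe covers 38 of the same bases and gave -0.55, with -0.26 and -0.85 in its 2 spots. Both are shown around the single base at which the overlap differs, in capitals, which is G24C counted from the 5′ end of the main probe. The probes thus kept one sign with unequal sizes.
MMP1 main probe, bases 10 to 37: taccatcctgatacGcaagggacaactt
MMP1 second probe, bases 32 to 59: taccatcctgatacCcaagggacaactt

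MMP9, gelatinase B, had -4.09 and -3.44, a difference of -0.65. Of the stromelysins and matrilysins on the array only MMP11 was detected, at 0.70. MMP3 and MMP7 were not well above background on either array.

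MMP19, which cleaves basement membrane proteins, was the 1 member lower in the crossbred pool, with -4.76 and -3.01, a difference of -1.75 or 3.37-fold. Its other probes gave 0.57 from -5.31 and -5.87, and -0.29 from -5.53 and -5.24. The main probe thus stood apart from both others, by 2.32 and 1.47. Both others lay close to the lowest signals well above background, -5.78 for crossbred and -5.94 for Zebu, and could show little of a fall. The mean over its probes was -0.49, and the main probe gave -0.88 with normexp. The other detected genes of that group were MMP27 at 0.58 and MMP28 at 0.11, and MMP12 and MMP20 were not well above background on either array.

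The membrane-anchored MMPs had a median of -0.02 over 7 detected genes, with 3 above and 4 below 0 and none past the threshold. That median is the bound of MMP14, whose own difference was -0.62, and the 10 probes of the group well above background on both arrays had a median of -0.61. MMP16, an activator of MMP2 in the membrane, had -5.31 and -4.13, a difference of -1.18 that was -0.21 with normexp. Another MMP16 probe, shifted by 6 bases and sharing a run of 54, was above background in the Zebu pool alone, at least 3.85-fold lower in the crossbred pool. The overlap is shown by bases 1 to 30 of the main and 1 to 24 of the other probe, with the shared letters in capitals.
MMP16 main probe: ggcataGGTTCAAGGAGTTCAGGTTTTTAA
MMP16 shifted probe: GGTTCAAGGAGTTCAGGTTTTTAA

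With a near-identical sequence these probes fell on either side of the threshold, and the choice of the main probe by the mean of linear signal in place of log2 signal takes the shifted one and makes MMP16 a second lower gene. MMP23B had -1.45 and -0.45, a difference of -1.0, with -1.03 and -0.97 in its 2 spots. MMP14, which activates MMP2 on the cell surface, had 1 probe, above background in the Zebu pool alone and at -5.76 close to the lowest such signal, so that its bound was at least 1.01-fold lower and says almost nothing of its direction.

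**Figure D3:**
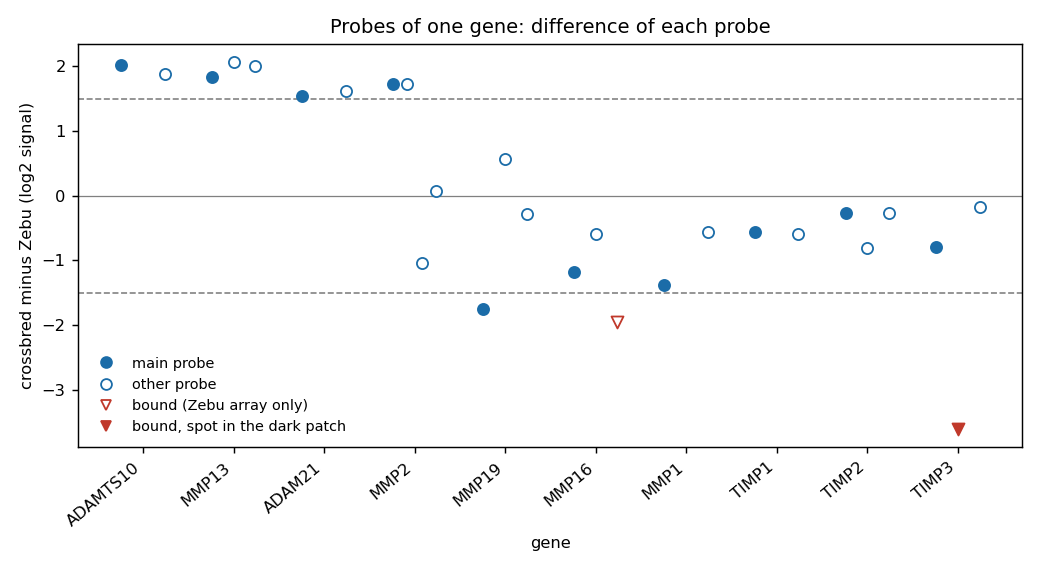
Difference in log2 signal (crossbred minus Zebu, y axis) of each probe of 10 genes named in the text. Filled points are main probes, open points are other probes well above background on both arrays, triangles are bounds for probes above background in the Zebu pool alone, the filled triangle has its spot in the dark patch of the crossbred array, and dashed lines mark 1.5 in size. The probes of ADAMTS10, MMP13 and ADAM21 lie together above 1.5, while those of MMP2 and MMP19 lie on both sides of 0.

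The TIMPs were all detected on both arrays, and none passed the threshold. TIMP1 had -1.17 for crossbred and -0.61 for Zebu, a difference of -0.56, and -0.60 by its second probe. TIMP2, which also takes part in MMP2 activation, had 6.45 and 6.72, a difference of -0.27, and its other probes gave -0.27 and -0.81. TIMP4 had -1.87 and -2.38, a difference of 0.51, the single TIMP above 0. TIMP1, TIMP2 and TIMP4 thus differed by amounts of at most about 2 times the SD between spots by their main probes.

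TIMP3, a matrix-bound inhibitor that also acts on ADAM17 and the aggrecanases, had -0.23 and 0.56, a difference of -0.79, and -0.18 by another probe. The remaining TIMP3 probe, the one shown above, had -7.97 and -2.17, which put it at least 12.2-fold lower in the crossbred pool. Its spot had an intensity of 4.69 for crossbred and 273 for Zebu, and the median difference of its 18 nearest spots was -6.58. It lies in a dark patch of the crossbred array, in rows 54 to 99 and columns 35 to 46, which holds 544 spots. The mean over the TIMP3 probes, with that bound, was -1.52, past the threshold by this spot alone.

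A TIMP4 probe that was not well above background on either array lies in the same patch, with -1.72 for its nearest spots. No other member spot lay in it, 0 lay in a bright patch of the same array, and the nearest spots of all other member spots had median differences between -0.85 and 0.48. No main probe of a member lay in a patch.

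The matrix proteins that these enzymes cleave had a median of -0.80 over 16 detected genes of 16 listed, with 12 below 0, 1 higher and 1 lower. COL3A1, a fibrillar collagen of stroma, had 1.07 and 2.58, a difference of -1.51. COMP, a cartilage matrix protein cut by several ADAMTS enzymes, had 2.38 and 0.80, a difference of 1.58. Activators and other inhibitors of MMPs had a median of -0.22 over 12 detected of 13 listed with no call.

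Markers of Sertoli, Leydig and peritubular cells lay below 0. The detected Sertoli cell markers had a median of -1.08 with 7 of 7 below 0, DHH being lower at -1.53, and INHBB was not well above background. The Leydig cell markers had -0.57 with 7 of 7 below 0, HSD3B1 at -1.77 and CYP17A1 at -1.68 being lower. The peritubular and smooth muscle markers had -0.77 with 6 of 6 below 0, the endothelial markers -0.03 and the macrophage markers 0.20, with AIF1 higher at 1.95. The spermatogonial markers, with a median of -0.80, had 7 of 8 below 0 as well. The detected proteoglycan-cleaving ADAMTS, and the TIMPs other than TIMP4 at 0.51, thus lay below 0 like Sertoli, Leydig, peritubular and spermatogonial markers. Of these TIMPs, TIMP2 at -0.27 was under the SD between spots. The part of any of these cells in the values was not tested.

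**Figure D4:**
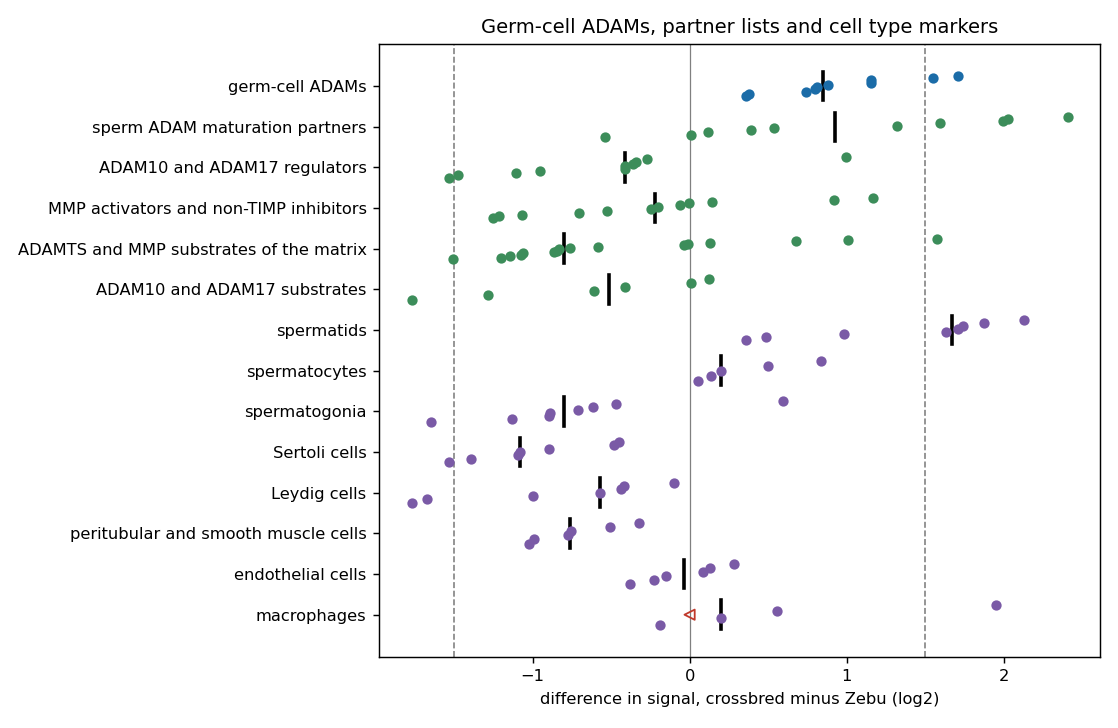
Difference in log2 signal (crossbred minus Zebu, x axis) of the germ-cell ADAMs, of 5 lists of partners and substrates and of 8 lists of cell type markers. Each point is 1 gene well above background on both arrays, the open triangle is a bound, black bars are medians and dashed lines mark 1.5 in size. The spermatid markers have the highest median at 1.67 and the Sertoli cell markers the lowest at -1.08.

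Some members that lie side by side in the genome had like values and others did not. In the order of protein-coding genes of the RefSeq annotation of ARS-UCD2.0, in which 64 of the 66 members were matched by name, ADAM9 and ADAM32 are direct neighbours on chromosome 27, and ADAM2, ADAM3A and ADAM18 follow with at most 1 gene between. ADAM9, a widely expressed sheddase, had -5.28 for crossbred and -4.83 for Zebu, a difference of -0.45. These signals were not far above the lowest ones well above background, -5.78 for crossbred and -5.94 for Zebu. The 4 germ-cell neighbours of ADAM9 ran from 0.74 to 1.15. On chromosome 10, ADAM20 and ADAM21 are direct neighbours, and both were higher.

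The MMP cluster on chromosome 15 runs from MMP13 through MMP12, MMP3, MMP1, MMP27 and MMP20 to MMP7. MMP13 at 1.84 and MMP1 at -1.38 lie in it with opposite signs, MMP27 had 0.58, and the remaining 4 were not well above background on either array. The aggrecanase pair ADAMTS5 and ADAMTS1 on chromosome 1 had -0.36 and -0.66, and ADAMTS8 and ADAMTS15 on chromosome 29 had -0.29 and -0.08.

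Over all members with several probes, 35 other probes of 25 genes were above background in both pools and could be set beside a main probe that was so too. Of these 30 had the sign of the main probe and 25 lay within 0.5 of it. The 3 that lay 1.5 or more away were 2 MMP2 probes and an MMP19 probe. The MMP19 probe and the MMP2 probe at 0.08 were close to the lowest signals well above background. Beyond the 35 other probes, 9 member probes were above background in the Zebu pool alone and 1, of ADAMTSL4, on the crossbred array only.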

How the data were processed

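Testis RNA of 3 bulls per breed was pooled and measured on 1 Agilent bovine array with Cy3 per pool. Per spot, the authors deposited an intensity, the processed signal of Agilent Feature Extraction 11.5.1.1, with background subtracted and without normalization between arrays, beside mean and local background intensities and marks for spots. The authors also deposited log2 values after a 75th percentile shift, which lay within 0.01 of those computed here for 98.8% of probes on the crossbred and 98.9% on the Zebu array.

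Control spots and 13 outlier spots, none of a member, were left out. Processed signals were put on a log2 scale, spots of a probe were averaged, and each array was shifted by its 75th percentile over probes (1176 for crossbred and 1233 for Zebu as signal). No spot was saturated, and the median signals of 126 and 129 stood against local backgrounds of 34 and 35.5. Where one array was not well above background, its side was set to the higher of its own value and the lowest value well above background on that array (-5.78 and -5.94), and the fold is a bound. The number of arrays limits the precision.

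Genes named are members past 1.5, the 5 highest and 5 lowest, all germ-cell ADAMs and TIMPs, members whose probes, well above background on both arrays, lie 1.5 or more apart, members on 1 array only or with a spot in a patch, and list genes past 1.5. Others, such as ADAM10, ADAM17 and ADAM33, were named with their values known. The members, their groups and the lists were chosen with earlier results of these data known. Python 3.11.15 with numpy 2.4.6 and pandas 2.3.3 was used, with limma 3.58.1 in R 4.3.3 for normexp. The steps were tested on simulated data. Alternatives were other scalings, filters, probe rules, left-out spots and thresholds.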

Additional observations from a re-analysis of the deposited data

How the results depend on the processing

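Under the 12 alternatives that recompute the values, the median difference of the germ-cell ADAMs stayed between 0.75 and 0.85, that of all members between -0.03 and 0.08, and no germ-cell ADAM went below 0. The number of members higher, 5, became 1 with normexp, 7 at a log2 threshold of 1 and 14 at a linear fold of 1.5. The number lower, 1, became 0 with normexp, 3 at a log2 threshold of 1 and 16 at a linear fold of 1.5. It became 2 with the main probe chosen by linear signal, an alternative added after seeing the data. With that choice 2.98% of all detected transcripts were lower. With the mean of all probes the numbers were 4 and 1, where TIMP3 took the place of MMP19 and MMP2 was no longer higher. For the other thresholds and the mean of all probes, shares of all detected transcripts were not computed. The counts of members under these settings thus cannot be read as many or few. The other scalings, the authors' log2 values, the filters and leaving out patch spots gave 5 and 1. Of 286 values of named genes under the alternatives, 271 moved by less than 0.34, 15 by more, and 0 called values changed sign. The offset of 50 is added to every corrected signal and by arithmetic shrinks the log2 differences of dim probes. How much of the lower values with normexp it makes up was not tested. Among named genes, ADAM18, ADAMDEC1, ADAMTS4, ADAMTS10, MMP1, MMP13, MMP16 and MMP19 moved by more than 0.34 with normexp, and no signal well above background was measured for ADAMDEC1 and MMP14 in the crossbred pool.

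No paired analysis was possible because each group had 1 array, and leaving out a replicate was not possible either.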

Other observations

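The array also holds 19 gene names, with 20 probes, that are not members by name but whose description names one of the families. Of these 13 were detected, 4 were higher and 0 lower, where 7.12% of all detected transcripts were higher and 2.92% lower. The 19 names were found after the member values were known and are given as values only.

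LOC786599, described as ADAM21, had 1.86 for crossbred and -0.21 for Zebu, a difference of 2.07. A transcript described as similar to ADAM 29, a germ-cell ADAM, had -0.45 and -2.83, a difference of 2.38 (ENSBTAT00000049418). Another transcript described as ADAM21 had -0.20 and -1.47, a difference of 1.27 (ENSBTAT00000053102). One described as similar to ADAM30 had 1.69 and 0.76, a difference of 0.93, and shares a run of 23 bases with the ADAM30 probe (NP9572351). These 4 were thus brighter on the crossbred array. A transcript described as like ADAM1, LOC783304, had -2.14 and -2.31, a difference of 0.18 that is below the SD between spots. One described as similar to a metalloproteinase-disintegrin had -1.98 and -2.27, a difference of 0.30 (NP9570839).

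The remaining higher ones were described as ADAMTS-like 1, with -2.53 and -4.14, a difference of 1.61 (ENSBTAT00000061071), and ADAMTS-like 3, LOC787624, with -1.77 and -3.40, a difference of 1.64. ADAMTS13, which cleaves von Willebrand factor, had -3.85 and -3.10, a difference of -0.75 (ENSBTAT00000020085). A transcript described as ADAMTS7 had 6.86 and 6.69, a difference of 0.16 (ENSBTAT00000038814). ADAM7, known from the epididymis, was not well above background on either array.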
